A study of Homo sapiens with 6 samples.

Results

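The RNA levels of 3 families of splicing factors were compared between HCT-116 cells transfected with a control GapmeR (GapNC) and cells transfected with a CASC9 GapmeR (GapC9). Members were the rows of the expression table with a gene name made of SRSF and a number (SR proteins), of HNRNP and letters or digits (hnRNP proteins), or of SF3A or SF3B and a number (subunits of splicing factor 3), with processed pseudogene symbols left out. This rule gave 43 of the 27918 rows, of which 12 were SR, 21 hnRNP and 10 SF3 rows, for 42 gene symbols, since SF3B4 had 2 rows. Of the 43 rows, 10 carried the names of several neighboring genes that transcript assembly had joined into 1 locus, compared with 3.81% of all rows.

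SR proteins have RNA recognition motifs and a tail of alternating arginine and serine (the RS domain). They bind enhancer sequences in exons, recruit the splicing machinery, and are switched by phosphorylation. HnRNP proteins coat nascent transcripts and often act in the opposite direction, silencing splice sites, and they also serve in RNA export and stability. SF3A and SF3B are the protein complexes of the U2 small nuclear ribonucleoprotein (snRNP) that hold it on the branch site of the intron, and SF3B1 is a recurrent target of mutations in blood cancers. Many SR and hnRNP genes limit their own expression by including a poison exon, which sends the transcript to nonsense-mediated decay.

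HCT-116 is a human epithelial cell line derived from a colorectal carcinoma, and all libraries came from this 1 line. A GapmeR is an antisense oligonucleotide with locked nucleic acid ends and a DNA center that directs RNase H to the paired RNA. It was transfected transiently, and both groups received a GapmeR, so that untransfected cells were not part of the comparison. There were 3 poly(A) RNA libraries per group, and the labels do not say whether they came from separate cultures, so that each p-value measures only the spread between these libraries. The labels give no dose or time. The study states a GapmeR concentration of 10 nM, and gives 24 h of transfection beside its sequencing but harvest after 48 h in its methods.

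CASC9, the lncRNA that the GapmeR was designed against, was listed at 0, 0.0108 and 0 FPKM (fragments per kilobase of transcript and per 1 M mapped fragments) in GapNC 1, 2 and 3, and at 0.0528, 0.107 and 0 FPKM in GapC9 1, 2 and 3. These values were near 0 in every library and not lower in GapC9, so the table could not check the knockdown, and the groups are described as the libraries labelled GapNC and GapC9. Libraries held 23.0 to 24.5 M (mega) fragments, on the assumption that the most frequent spacing of the lowest FPKM values stands for 1 fragment. Of the epithelial markers, EPCAM was at 62.3 to 88.4 FPKM and CDH1 at 8.43 to 14.3 FPKM, whereas CDX1, VIL1 and CDH17 were at or near 0. PTPRC, CD3E, PECAM1, VWF and COL1A2, which mark other cell types, were at or near 0, COL1A1 was at 1.06 to 1.54 FPKM, ACTA2 at 2.38 to 3.35 FPKM and CD68 at 49.8 to 55.7 FPKM. Libraries differed by base composition, GapNC 1 the most. The deviation of a gene from its mean over the libraries was correlated with its GC content across 10117 genes. Spearman rho was 0.618, 0.0132 and -0.101 in GapNC 1, 2 and 3, and 0.0216, -0.339 and -0.384 in GapC9 1, 2 and 3. Each number was thus lower in GapC9, and the differences were not limited to GapNC 1. Across 39 members, rho was 0.464 in GapNC 1, 0.337 in GapC9 1 and below 0 in the other libraries. Genes in 1 library are not independent. Some members lost or gained their call or moved by over 1.5 times without GapNC 1. Where library values of such a member are printed, other than those listed at 0, the value without GapNC 1 is given.

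The splicing factors were among the more abundant transcripts of these cells. Of the 43 rows, 23 ranked within the top 1000 of the table by mean FPKM over the 6 libraries. HNRNPA1, which opposes SR proteins in the choice of splice sites, had the highest mean at 151.7 FPKM (rank 110), followed by HNRNPA2B1, its close relative, at 119 FPKM, and HNRNPK, a protein that binds C-rich RNA through KH domains, at 115.04 FPKM. The highest SF3 level was that of SF3B4 at 59.1 FPKM, and the highest SR level was that of SRSF2 at 49.2 FPKM. SRSF12 was the lowest member, listed at 0.0094 FPKM in GapNC 2, at 0.0039 FPKM in GapC9 3 and at 0 in the other libraries, and it was the 1 row that missed the filter of a mean of 0.1 FPKM for testing.

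**Figure D1:**
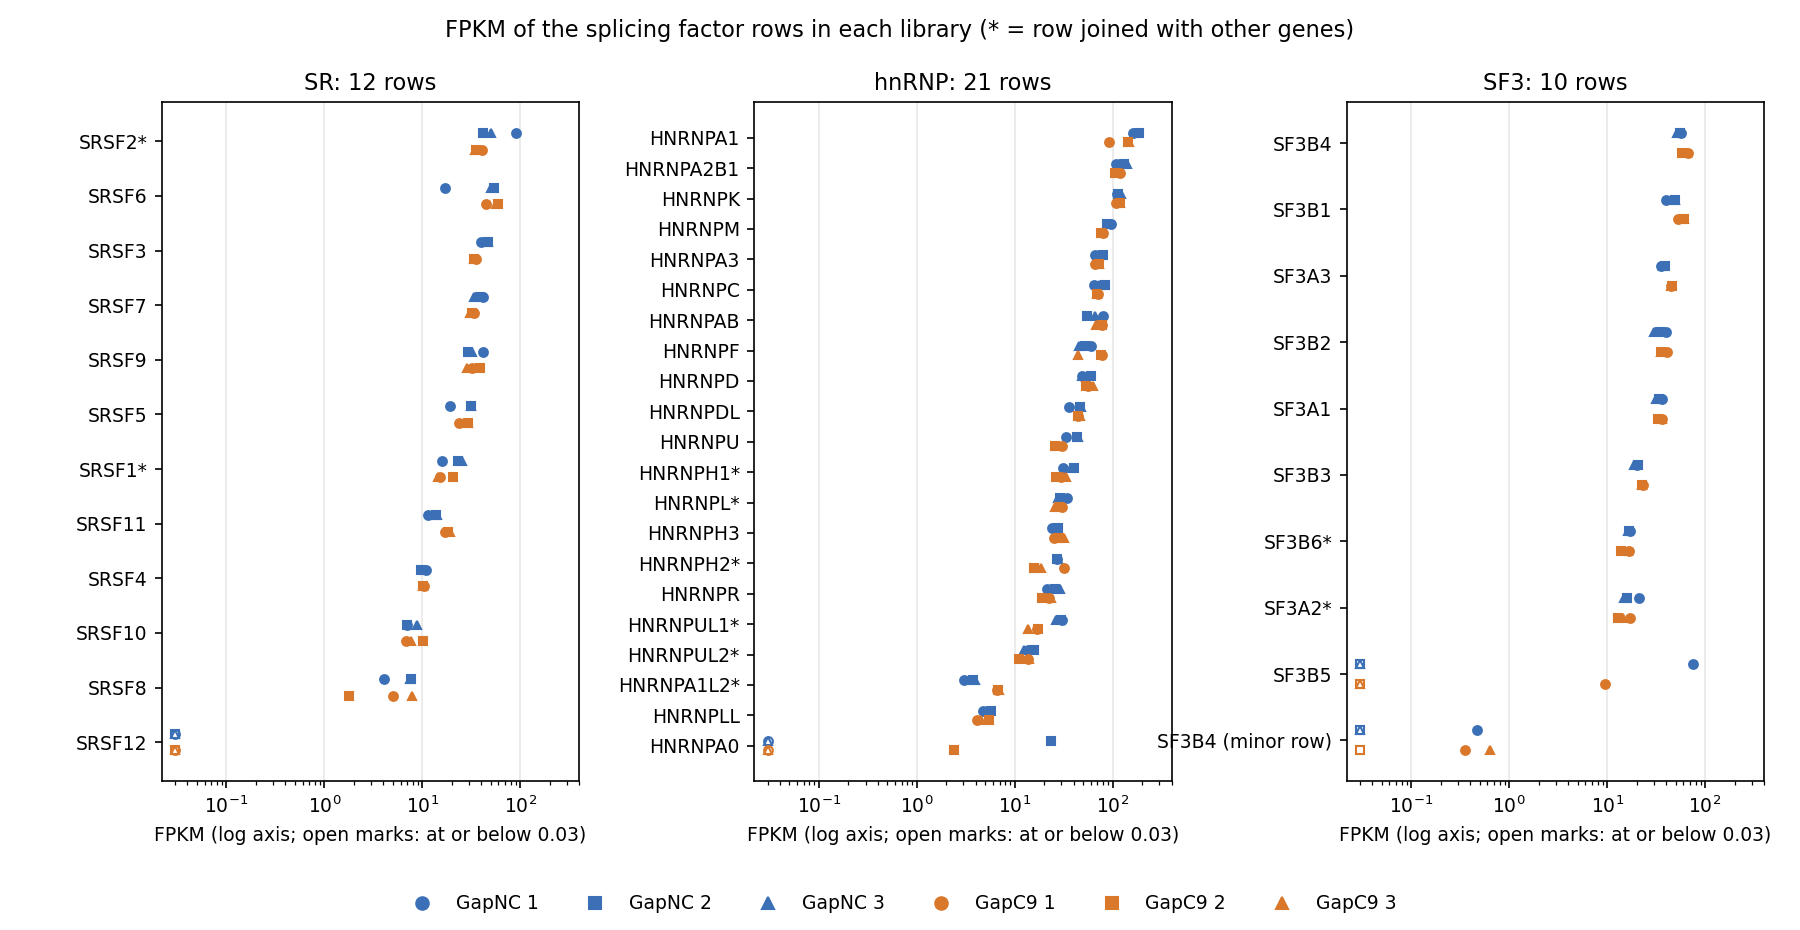
FPKM (log axis) of each of the 43 rows in each library, by family and ordered by mean, with blue marks for the GapNC and orange marks for the GapC9 libraries, and open marks at the left edge for values at or below 0.03 FPKM. Most rows spanned a narrow range over the 6 libraries, whereas HNRNPA0 and SF3B5 had high values in single libraries and 0 in the others.

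Few members differed between the groups beyond the spread of the libraries. The thresholds of the study were a mean FPKM doubled or more (ratio 2), or lowered to 0.5 or less, and an unadjusted p under 0.05. The study applied its thresholds with edgeR, whereas the p-values here came from limma. At these thresholds no member was called in either direction, compared with 2.1% of the 16028 rows tested that were higher and 4.32% that were lower (6.42% in all). At a Benjamini-Hochberg adjusted p under 0.05 in limma, fitted to log2(FPKM + 0.1) of all rows tested, 1 of the 42 members tested rose (the HNRNPA1L2 locus) and 1 fell (the HNRNPUL1 locus), compared with 1.89% and 5.1% of all rows (6.99% in all). Both were joined rows. In bulk RNA, fewer cells with a transcript and less of it per cell cannot be told apart. At an unadjusted p under 0.05, 4 members were higher and 5 were lower in GapC9, compared with 9.09% and 16.8% of all rows (25.9% in all).

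The 3 GapNC and 3 GapC9 values did not overlap for 6 members that were higher in GapC9 and 6 that were lower, compared with 12.6% and 21.6% of all rows. The change of mean FPKM in these 12 members ran from 14.3% to 89.3% for the higher ones, and from -15.8% to -44.2% for the lower ones. When every library was scaled to the same median, the members without overlap divided into 8 higher and 4 lower ones. With this scaling 34.9% of all rows were without overlap in either direction. The same scaling moved the median log2 fold change of all rows by 0.11, from -0.076 to 0.034, so that directions of whole families are given relative to all rows.

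The fitted log2 fold change of the members had a median of -0.066, close to that of all rows, and 24 of 42 were below 0 (57.1%), compared with 56.4% of all rows. By family, the median minus that of all rows was 0.032 for SR, -0.030 for hnRNP and 0.22 for SF3. With quantile normalization and with GC correction the SR difference was negative instead, at -0.021 and -0.083. In single libraries, the family median, not taken relative to all rows, had an SD within groups of 0.122 for SR, 0.0749 for hnRNP and 0.0996 for SF3. This SD also holds shifts of whole libraries, so it is not the error of the differences above, which were not tested. With GC correction the hnRNP difference was -0.17. Without GapNC 1 the differences were -0.11 for SR, which thus turned negative, -0.11 for hnRNP in place of -0.030, and 0.27 for SF3. The SR and hnRNP medians thus depended on this library.

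**Figure D2:**
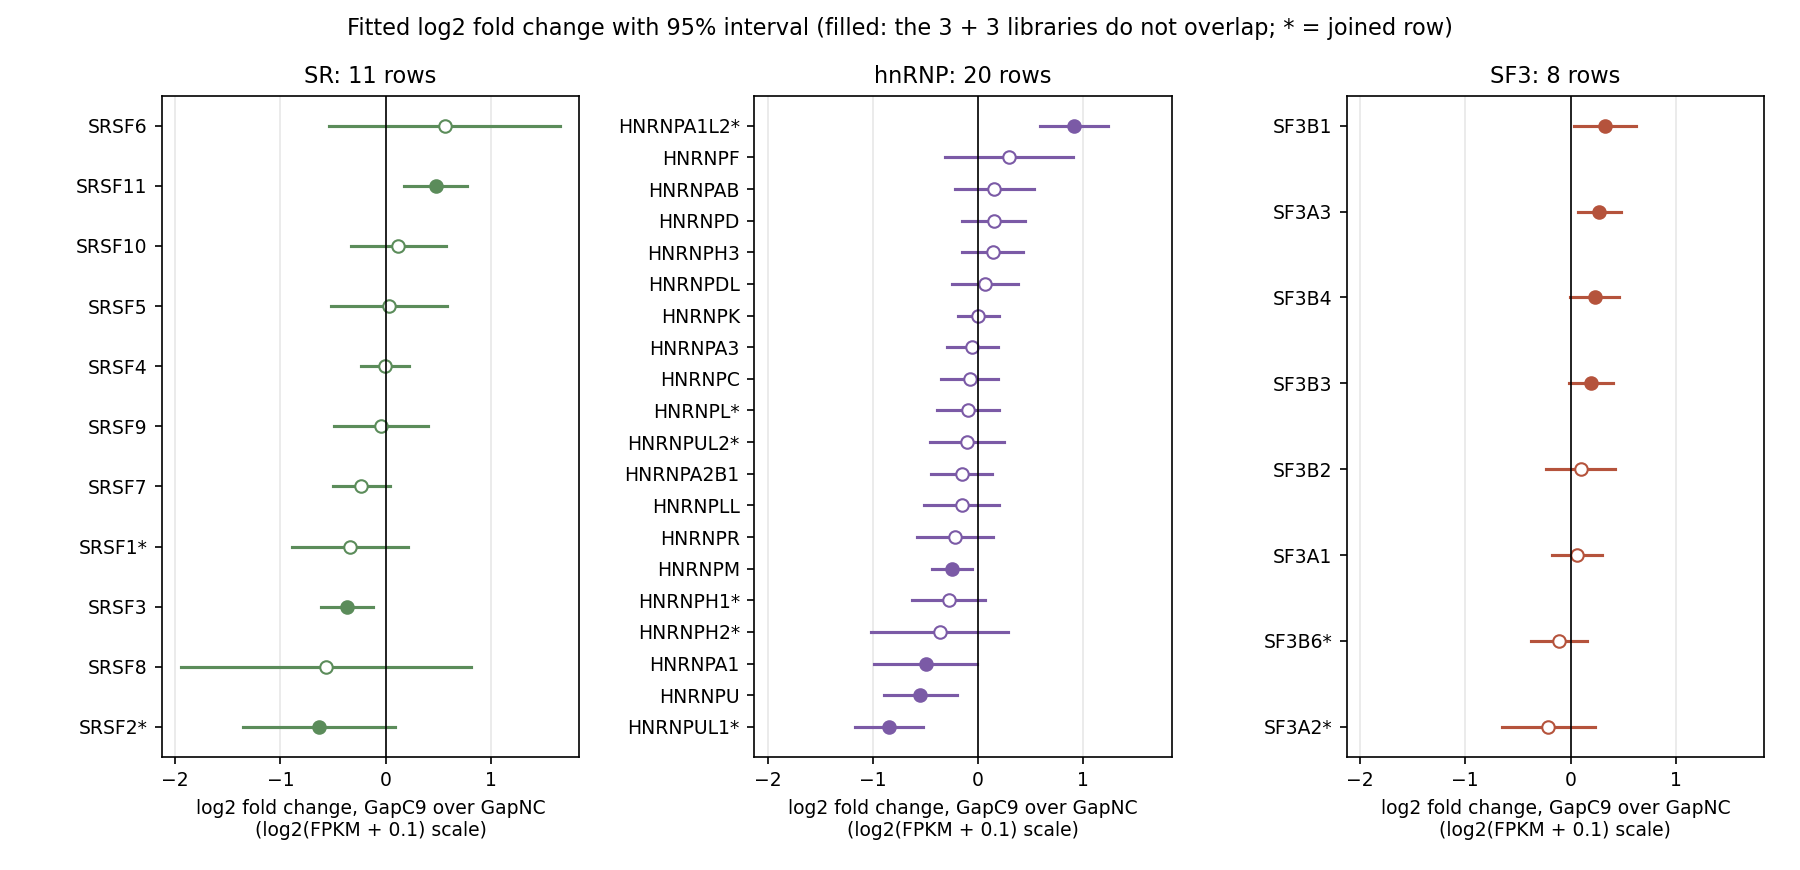
Fitted log2 fold change of GapC9 over GapNC, on the log2(FPKM + 0.1) scale, with its 95% interval from limma, for the 39 members with no library at 0. Filled marks are members whose GapNC and GapC9 libraries did not overlap, and asterisks mark rows joined with other genes. Filled marks lie on both sides of 0 in the SR and hnRNP panels and above 0 in the SF3 panel.

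In the SR family no row passed the adjusted threshold, and 3 of 11 tested rows had groups without overlap, compared with 34.2% of all rows. SRSF11, an SR protein known as p54 that contacts the factor U2AF at the end of introns, was at 11.4, 13.9 and 14.2 FPKM in GapNC and at 17.1, 18.4 and 19.1 FPKM in GapC9. Every GapC9 library was above every GapNC library, with means of 13.1 ± 1.55 and 18.2 ± 1.0 FPKM (SD, n = 3) and a log2 fold change of 0.47 (SE 0.12, limma adjusted p = 0.0736). SRSF3, the smallest SR protein, with roles in splicing and mRNA export, was at 39.3, 46.8 and 46.6 FPKM in GapNC and at 35.2, 33.9 and 33.6 FPKM in GapC9. All GapC9 libraries were below all GapNC libraries, with means of 44.3 ± 4.25 and 34.2 ± 0.845 FPKM (SD, n = 3) and a log2 fold change of -0.37 (SE 0.10, limma adjusted p = 0.0891). Without GapNC 1, the lowest of the GapNC libraries for SRSF3, the limma adjusted p was 0.0373.

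SRSF2 and SRSF6 turned on GapNC 1. SRSF2, also called SC35 and used as a marker of nuclear speckles, was at 91.3, 41.2 and 50.8 FPKM in GapNC and at 41.1, 35.7 and 34.8 FPKM in GapC9. The GapNC 1 value stood far above the other 5, and the gap between the lowest GapNC and the highest GapC9 library was small. The log2 fold change was -0.63 (SE 0.30, limma adjusted p = 0.239), and -0.30 without GapNC 1. Exons of MFSD11 overlap SRSF2 on the other strand, and its row also holds MIR636. SRSF6, an SR protein known as SRp55, was at 17.2, 53.8 and 50.4 FPKM in GapNC and at 45.3, 58.9 and 56.2 FPKM in GapC9. Here GapNC 1 was the lowest library, and the log2 fold change of 0.56 (SE 0.45, limma adjusted p = 0.483) became 0.028 without it (adjusted p = 0.921).

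The other SR rows overlapped between the groups. SRSF8, a retrocopy of SRSF2, was at 4.10, 7.73 and 7.55 FPKM in GapNC and at 5.0, 1.79 and 7.92 FPKM in GapC9, with the lowest and the highest value both in GapC9 (log2 fold change -0.57, limma adjusted p = 0.567, and a log2 fold change of -0.86 without GapNC 1). SRSF10, a general repressor of splicing when dephosphorylated, was at 6.92, 6.94 and 8.75 FPKM in GapNC and at 6.88, 10.2 and 7.69 FPKM in GapC9 (log2 fold change 0.12, limma adjusted p = 0.723, and a log2 fold change of 0.063 without GapNC 1). Neither gene had all libraries of a group on 1 side of the other group. Over the 8 SR rows with overlap, including SRSF6, SRSF1, SRSF4, SRSF5, SRSF7 and SRSF9, the log2 fold change ran from -0.57 to 0.56, with limma adjusted p-values of at least 0.249. SRSF1, the founding SR protein, was in a row joined with AC015813.2 and AC015813.1.

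In the hnRNP family 2 of 21 rows passed the adjusted threshold and 5 had groups without overlap, compared with 6.99% and 34.2% of all rows. The row that fell held HNRNPUL1, an hnRNP U-like protein with a role in DNA repair and RNA export, joined with its neighbor CCDC97. It was at 30.1, 29.7 and 26.5 FPKM in GapNC and at 17.0, 17.5 and 13.6 FPKM in GapC9. Means were 28.8 ± 2.01 and 16.0 ± 2.13 FPKM (SD, n = 3), and the log2 fold change was -0.85 (SE 0.13, limma adjusted p = 0.0278). In GENCODE release 29 (GRCh38), HNRNPUL1 lies at chr19:41262496-41307598 on the plus strand, and an exon of it overlaps TGFB1 on the minus strand. Reads of HNRNPUL1 and CCDC97 could not be told apart in this joined row. Reads in the overlap with TGFB1 could not be assigned to either gene, since the strand use in counting is not stated. With any 1 of the 6 libraries left out, the call was lost, and the adjusted p was 0.0552 to 0.0978.

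The row that rose held HNRNPA1L2, an intronless copy of HNRNPA1, joined with AL137058.2 and MRPS31P4. It was at 3.01, 3.78 and 3.89 FPKM in GapNC and at 6.53, 6.73 and 6.97 FPKM in GapC9. Its means were 3.56 ± 0.482 and 6.75 ± 0.221 FPKM (SD, n = 3), with a log2 fold change of 0.91 (SE 0.13, limma adjusted p = 0.0254). The gene lies at chr13:52642425-52643796 on the plus strand, in a single exon. Fragments may be shared with HNRNPA1 and with the other 2 genes of the row, which makes the assignment to HNRNPA1L2 uncertain. The call was kept without GapNC 1 and lost when any other library was left out, with an adjusted p of up to 0.105.

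HNRNPU, HNRNPM and HNRNPA1 were lower in every GapC9 library than in every GapNC library, without passing the adjusted threshold. HNRNPU, also known as scaffold attachment factor A, which binds chromatin-associated RNA, was at 33.6, 43.0 and 44.3 FPKM in GapNC and at 30.1, 25.5 and 26.5 FPKM in GapC9 (log2 fold change -0.55, SE 0.14, limma adjusted p = 0.0736). Without GapNC 1, the lowest GapNC library, the adjusted p was 0.0388. HNRNPU overlaps exons of COX20 on the other strand. HNRNPM, a regulator of alternative exons, was at 96.6, 88.0 and 92.9 FPKM in GapNC and at 79.8, 76.1 and 77.7 FPKM in GapC9 (log2 fold change -0.25, SE 0.078, limma adjusted p = 0.117). The log2 fold change of HNRNPM was -0.065 with GC correction (limma adjusted p = 0.58) and -0.14 with median scaling. HNRNPM and SF3B3 are given by library because their groups did not overlap, a choice made after their values were seen.

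HNRNPA1 was at 163, 188 and 178 FPKM in GapNC and at 91.2, 145 and 146 FPKM in GapC9 (log2 fold change -0.50, SE 0.20, limma adjusted p = 0.186). GapC9 1 was far below the other 5 libraries, and without it the log2 fold change was -0.28 (limma adjusted p = 0.212). HNRNPA1 has many processed pseudogenes with near-identical sequence, so that its fragments may be divided between rows. HNRNPA1P10 was at 34.7, 30.6 and 33.7 FPKM in GapNC and at 2.32, 3.06 and 25.1 FPKM in GapC9, whereas HNRNPA1P48 was at 14.2, 15.2 and 14.4 FPKM and at 11.6, 15.7 and 13.8 FPKM. Every GapC9 value of HNRNPA1P10 was below every GapNC value, with GapC9 3 the nearest to GapNC, and HNRNPA1P48 had overlapping groups. The part of fragment sharing in the HNRNPA1 values was not tested.

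HNRNPA2B1, HNRNPK, HNRNPF and HNRNPAB had overlapping groups. HNRNPA2B1 was at 107, 129.9 and 139 FPKM in GapNC and at 119, 107 and 111 FPKM in GapC9 (log2 fold change -0.16, limma adjusted p = 0.459, and a log2 fold change of -0.26 without GapNC 1). HNRNPK was at 111, 113 and 120.5 FPKM in GapNC and at 109, 119 and 118 FPKM in GapC9, with a log2 fold change of 0.0023 a 95% interval of -0.20 to 0.20, and a value of -0.021 without GapNC 1. The interval of HNRNPK left room for a moderate change either way. HNRNPF, which binds G tracts, was at 60.1, 52.1 and 45.4 FPKM in GapNC and at 77.5, 76.7 and 44.1 FPKM in GapC9 (log2 fold change 0.29, limma adjusted p = 0.501), with 2 GapC9 libraries above and 1 below all GapNC libraries. HNRNPAB, a relative of the A and B proteins, was at 80.6, 55.3 and 66.7 FPKM in GapNC and at 77.0, 78.2 and 68.3 FPKM in GapC9 (log2 fold change 0.16, limma adjusted p = 0.567, and a log2 fold change of 0.29 without GapNC 1). Over the 15 hnRNP rows with overlapping groups and no value at 0, also including HNRNPA3, HNRNPC, HNRNPD, HNRNPDL, HNRNPH1, HNRNPH2, HNRNPH3, HNRNPL, HNRNPLL, HNRNPR and HNRNPUL2, the log2 fold change ran from -0.37 to 0.29, with 6 above and 9 below 0 and limma adjusted p-values of at least 0.274.

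In the SF3 family 4 of 10 rows were higher in every GapC9 library than in every GapNC library, and none were lower in every library, compared with 12.6% and 21.6% of all rows. No row passed the adjusted threshold. SF3B1, the largest subunit, which clamps the branch site helix, was at 40.4, 49.6 and 49.9 FPKM in GapNC and at 53.3, 61.2 and 60.5 FPKM in GapC9 (log2 fold change 0.33, SE 0.12, limma adjusted p = 0.162). SF3A3, a subunit of the SF3A complex, was at 35.2, 39.4 and 37.4 FPKM in GapNC and at 45.1, 45.7 and 44.4 FPKM in GapC9 (log2 fold change 0.27, SE 0.084, limma adjusted p = 0.110). The distance between the groups was small next to the levels, and that of SF3A3 rested on tight GapC9 values with an SD of 0.638 FPKM. SF3B4, which binds RNA next to the branch site, was at 56.3, 54.9 and 51.9 FPKM in GapNC and at 67.8, 57.9 and 66.0 FPKM in GapC9 (log2 fold change 0.23, SE 0.10, limma adjusted p = 0.197). SF3B3, a scaffold of the SF3B complex, was at 20.4, 20.8 and 19.0 FPKM in GapNC and at 23.2, 22.7 and 22.9 FPKM in GapC9 (log2 fold change 0.19, SE 0.085, limma adjusted p = 0.218). With the GC content of each gene corrected for in each library, these 4 rows passed the limma adjusted threshold (adjusted p of 0.0345 for SF3B1, 0.0298 for SF3A3, 0.0307 for SF3B4 and 0.04 for SF3B3), at which 14.5% of all rows were then called.

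The other SF3 subunits overlapped between the groups. SF3A2, in a row joined with AMH, was at 21.2, 16.0 and 14.7 FPKM in GapNC and at 17.2, 12.9 and 14.4 FPKM in GapC9 (log2 fold change -0.21, limma adjusted p = 0.503, and a log2 fold change of -0.057 without GapNC 1). SF3B6, which sits next to the branch site adenosine and was joined with TP53I3, was at 17.3, 16.6 and 16.5 FPKM in GapNC and at 16.6, 13.8 and 16.4 FPKM in GapC9 (log2 fold change -0.11, limma adjusted p = 0.564). Both turned positive with GC correction, at 0.14 and 0.13. SF3A1 and SF3B2 had log2 fold changes of 0.063 and 0.10. For both, GapNC 1 was the highest GapNC library, and the values without it are not given.

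**Figure D3:**
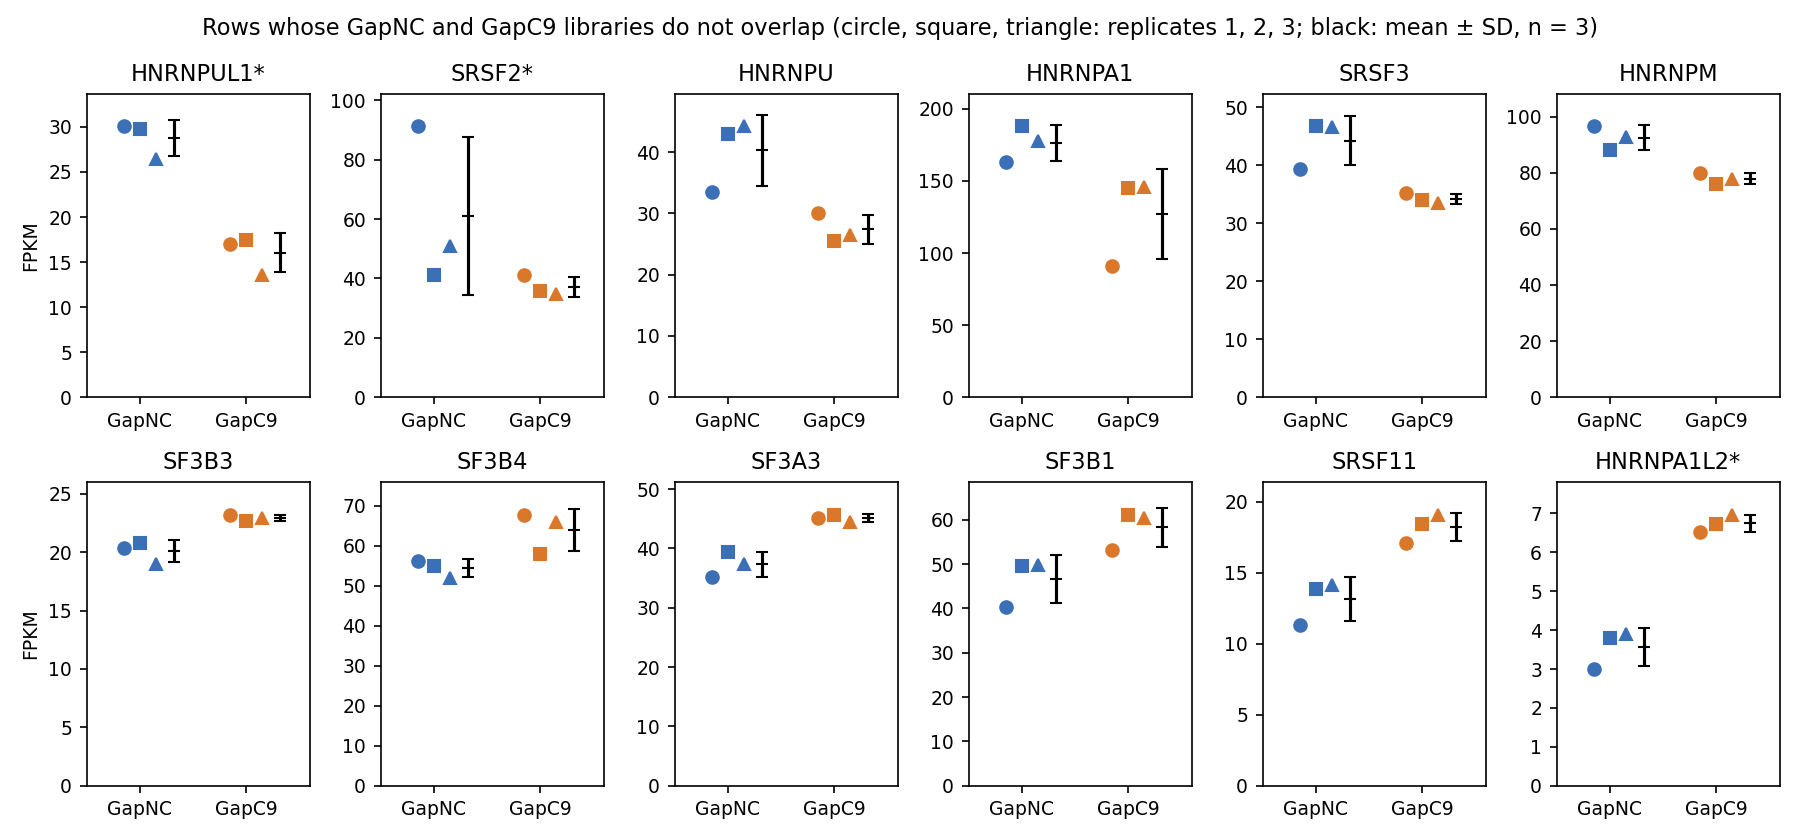
FPKM in each library of the 12 members whose groups did not overlap, with circles, squares and triangles for replicates 1, 2 and 3, and the mean ± SD (n = 3) in black beside them. Each axis starts at 0. In the upper row the GapC9 libraries lie below the GapNC libraries, with GapNC 1 high for SRSF2 and GapC9 1 low for HNRNPA1, and in the lower row they lie above.

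HNRNPA0 and SF3B5 could not be compared. HNRNPA0, an intronless hnRNP gene, was listed at 0, 23.5 and 0 FPKM in GapNC and at 0, 2.40 and 0 FPKM in GapC9. SF3B5, a small SF3B subunit also without introns, was listed at 75.1, 0 and 0 FPKM in GapNC and at 9.43, 0 and 0 FPKM in GapC9. The values above 0 fell in libraries of the same number in both groups. Such values were common among intronless genes in this table, since 104 of 192 rows with only single-exon transcripts and at least 5 FPKM in some library (54.2%) were listed at 0 in another library, compared with 4 of 6329 rows with several exons (0.0632%). A listed 0 of these genes is therefore not a measured absence. The second row of SF3B4, a minor transcript, was listed at 0.473, 0 and 0.0299 FPKM in GapNC and at 0.35, 0 and 0.633 FPKM in GapC9.

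Most SF3 genes also held a promoter motif that the choice of members did not use. Promoter windows of 250 bases before to 50 bases after the transcription start were taken from RefSeq (GRCh38.p14), which held 39 of the 42 symbols. HNRNPA1, SF3B3 and SRSF2 had no window. Shares over all 35116 windows cover genes whether or not these cells express them. No share matched for expression or GC content was computed, so a trait particular to SF3 is not shown. Of 9 motifs searched on both strands, CCGGAAGT is the core of binding sites of ETS-type factors and was present in 6 of 8 SF3 windows, 2 of 11 SR windows and 1 of 20 hnRNP windows, compared with 4.14% of 35116 windows. It is written in capitals in the stretches of these 6 SF3 genes, printed on the strand of the gene, to show how close to the start it lies and how little the bases around it are alike.
SF3A3 (chr1:37990073-37990102, minus strand): agtcccggggcACTTCCGGcactcgcggaa
SF3B4 (chr1:149927811-149927840, minus strand): ccgtcttcgccCCGGAAGTggaagtcgtgc
SF3B6 (chr2:24076467-24076496, minus strand): cggtacagagcCCGGAAGTgtcttggactc
SF3B2 (chr11:66052300-66052329, plus strand): atacggcgccaCCGGAAGTtccggcaagtg
SF3A2 (chr19:2236804-2236833, plus strand): tctcatttgccCCGGAAGTgctttctttgc
SF3A1 (chr22:30356925-30356954, minus strand): aggggacggtcCCGGAAGTgcgccagtcgt

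In SF3A3 the match was on the other strand. The first base of the match lay 9 bases before the RefSeq start in SF3A2, 26 in SF3B4, 49 in SF3A1, 53 in SF3B2, 69 in SF3A3 and 159 in SF3B6. Of the 6 genes, SF3A3 and SF3B4 were among those higher in every GapC9 library, and the others had overlapping groups. SF3B1 and SF3B3 were also higher in every GapC9 library, but SF3B1 had no match and SF3B3 had no window. SF3B5 had no match either. In GENCODE the genes SF3A3, SF3B4, SF3B2, SF3A2 and SF3A1 begin upstream of the match, which then lies inside the gene.

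The hnRNP windows held the E-box CACGTG in 7 of 20 genes, namely HNRNPA3, HNRNPD, HNRNPDL, HNRNPH2, HNRNPH3, HNRNPM and HNRNPUL1, and it was found in SF3B1 and in no SR window, compared with 7.26% of all windows. The CCAAT box (CCAAT) was in 13 of 20 hnRNP windows, 2 of 11 SR windows and 1 of 8 SF3 windows, compared with 34.6% of all windows. Among the members without overlap, HNRNPU and SRSF3 held it. The TATA box TATAAA was in 5 of 39 member windows (12.8%), compared with 11.5% of all windows, and the GC box GGGCGG in 27 (69.2%), compared with 45.0%. No member held TGACGTCA, the site of cyclic AMP response, which was in 1.85% of all windows. The YY1-type motif was in 1 member window, that of SF3A1, the NRF1-type motif was in 0, and a longer palindrome was in 2 (HNRNPK and SRSF10), compared with 1.2%, 1.24% and 0.424% of all windows. Member windows had a median GC content of 63.7%, compared with 58.7% for all windows. These matches describe letters in the windows, and binding was not measured.

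In GENCODE, 28 of the 42 symbols (66.7%) had a transcript annotated for nonsense-mediated decay, compared with 35.6% of 19951 protein-coding genes. They were 12 of 12 SR, 13 of 21 hnRNP and 3 of 9 SF3 genes. The FPKM values were given per gene, so that spliced forms with poison exons could not be told from productive ones. In addition, 15 of the 42 symbols had an exon that overlapped an exon of another gene on the opposite strand, as in HNRNPUL1, HNRNPU, HNRNPM, HNRNPA2B1, SRSF2, SRSF9, SF3A1 and SF3B2.

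The GC content of the transcripts differed between the families, with a median of 40.7% for SR, 42.3% for hnRNP and 50.9% for SF3, compared with 49.0% for all rows. Across the 9 SF3 rows with a value, the log2 fold change correlated with GC content at a Spearman rho of -0.78, across the 11 SR rows at -0.7 and across the 21 hnRNP rows at 0.19, compared with -0.255 across all 15909 rows. The genes share libraries, and these values are descriptions. GapNC 1 was the library farthest from the other libraries for 14 of 39 members, more often than any other. Beyond the GC correction, whose results are given for the families and for some members, the part of base composition in the member values was not tested.

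Genes that work with these families were examined as lists, 110 genes or loci tested in all, of which 2 rose and 5 fell at the adjusted threshold of limma, compared with 1.89% and 5.1% of all rows, and 55 lay on each side of 0. Among the U2 snRNP partners of SF3, SMNDC1, a protein needed to assemble the spliceosome, rose from 7.18 ± 0.489 FPKM in GapNC to 18.1 ± 2.63 FPKM in GapC9 (log2 fold change 1.31, adjusted p = 0.0159), and it was the 1 gene of all lists that also met the ratio of 2. U2AF1, which reads the AG at the end of introns, rose from 4.15 ± 0.242 FPKM to 6.94 ± 0.352 FPKM (log2 fold change 0.73, adjusted p = 0.0242). The GapC9 values of both genes lay above all GapNC values, whereas the other 14 partners did not pass the test. U2AF1 has near-identical copies in the human genome, so its fragments may be divided.

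The hnRNP proteins known by other symbols had a log2 fold change below 0 in 7 of 8 cases, 5 of them without overlap of the groups, compared with 56.4% and 21.6% of all rows. Among 26 other splicing regulators, 17 had a log2 fold change below 0 (65.4%), with a median of -0.37, and 3 fell at the adjusted threshold. RBM25, which binds U1-associated factors, fell from 15.3 ± 1.47 FPKM to 9.63 ± 0.480 FPKM (log2 fold change -0.66, adjusted p = 0.0314), MBNL1, the factor sequestered in myotonic dystrophy, had a log2 fold change of -0.75 (adjusted p = 0.0351), and CELF2, its antagonist at many exons, had one of -0.82 (adjusted p = 0.0397). The RBM25, MBNL1 and CELF2 groups did not overlap. Of the kinases and import receptors of SR proteins, SRPK2, a kinase of RS domains, was the 1 of 11 that passed, and it fell from 5.21 ± 0.343 FPKM to 3.60 ± 0.0606 FPKM (log2 fold change -0.52, adjusted p = 0.0429). With every library scaled to the same median, the lists together gave 5 higher and 0 lower calls in place of 2 and 5. Over all rows the scaling gave 398 higher and 500 lower calls in place of 303 and 817. It moved each log2 fold change up by 0.11, so that these falls became smaller but stayed below 0. The calls of these falls thus depended on the scaling. With 1 library left out at a time, SMNDC1 passed in 2 of 6 fits, U2AF1, RBM25, CELF2 and SRPK2 in 1 each and MBNL1 in 0.

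In the lists without a call, the log2 fold change of SR-related RS proteins was above 0 for 14 of 17 genes, 9 of them without overlap, compared with 43.6% and 12.6% of all rows, with a median of 0.20. None of the 17 passed the adjusted threshold. PNN (pinin) had the largest positive value (0.995, limma adjusted p = 0.193), from 36.2 ± 17.8 FPKM to 65.2 ± 0.771 FPKM, with GapNC 1 far below the others and a log2 fold change of 0.51 without it, and TRA2B the largest negative one (-0.13, adjusted p = 0.404). The 10 rows of U1 snRNP and Sm proteins ranged from -0.24 (SNRPF) to 0.61 (the SNRPD2 locus), and the 22 rows of the U4/U6.U5 tri-snRNP from -0.53 (SNU13) to 0.29 (LSM3), with no call in either.

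**Figure D4:**
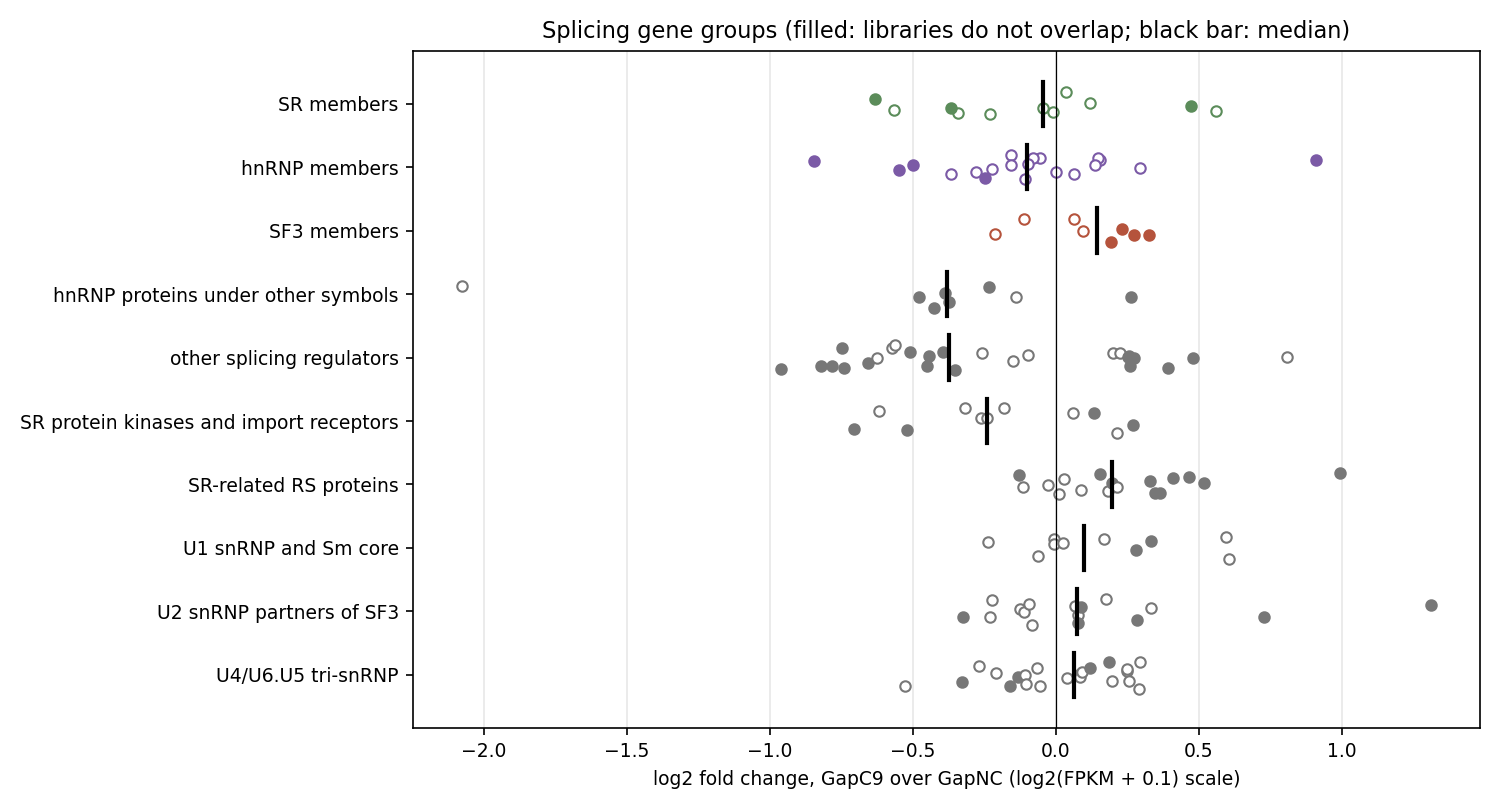
Fitted log2 fold change of GapC9 over GapNC, on the log2(FPKM + 0.1) scale, of the members by family (colored) and of the related lists (gray), with filled marks where the groups did not overlap and black bars for the medians. The bars of SF3, the SR-related RS proteins, the U1 snRNP and Sm core, the U2 snRNP partners and the tri-snRNP lie above 0. That of the other splicing regulators lies at -0.37 and that of the SR protein kinases and import receptors at -0.24. The bar of the hnRNP proteins under other symbols lies at -0.38. The point farthest to the left in that list is PCBP1, an intronless gene with 1 low GapC9 library, picked out after its value was seen.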

How the data were processed

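Poly(A) RNA of HCT-116 cells was sequenced as paired-end libraries, 3 labelled GapNC and 3 labelled GapC9. The authors used HISAT for alignment and StringTie for assembly, and deposited 1 table of 27918 rows in FPKM. The submitters' processing notes name HISAT2 2.0, StringTie 1.3.0 and Bowtie 0.12.2, and the mouse build mm8, which the human gene identifiers do not match. All value columns were mapped by name, with 0 left unused.

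FPKM relates fragments to transcript length and to the total of the library, so abundant RNAs lower all others. Counting errors of single values are unknown, since the table holds no counts. In R 4.3.3, limma 3.58.1 (lmFit, eBayes with trend) was fitted to log2(FPKM + 0.1) of the 16028 rows whose mean reached 0.1 FPKM, with Benjamini-Hochberg adjustment over them, in 1 fit of all 6 libraries. Fold changes on this scale understate low genes. The fit was tested on simulated data. Positions and GC content came from GENCODE 29 (GRCh38) and promoter windows from RefSeq (GRCh38.p14), read in Python 3.11.15.

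The members and lists were chosen with earlier results of these data known. Values by library are given for members past the adjusted or the fold threshold, the 3 highest and the 3 largest rises and falls per family. Of the lists, genes past a threshold are named, or otherwise the largest rise and fall. Of the genes past a threshold, 1 is counted and not reported here by name. The alternatives were pseudocounts of 1 and 0.01, a filter of 1 FPKM or none, median scaling, quantile normalization, GC correction (lowess, span 0.3), a replicate block, no trend, and each library left out.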

Additional observations from a re-analysis of the deposited data

How the results depend on the processing

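Of 42 members tested, 26 kept their direction in all 16 alternatives (13 higher, 13 lower), and 172 of 224 recomputed counts and medians kept their call or stayed close to the reported value. Alternatives that changed only the filter, the trend or the replicate block left the fitted log2 fold change as it was, so they could not change a direction. The share of all rows that kept their direction is not given. Pseudocounts, filters and limma without trend left the calls of HNRNPA1L2 and HNRNPUL1 in place.

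Median scaling gave 1 member past the fold threshold (HNRNPA1L2, ratio 2.04), 2 lower members at an unadjusted p under 0.05, and medians of 0.044 for all members, 0.0037 for hnRNP and 0.25 for SF3. It gave 5 higher and 0 lower calls in the related lists, compared with 398 and 500 of all 16028 rows at the adjusted p. Quantile normalization gave 1 member past the fold threshold and 2 lower related calls, with 516 of all rows called lower at the adjusted p. No filter left 1 lower related call, and no trend left 2, with 3 lower members at the unadjusted p. Without the filter 346 of 27918 rows were called lower at the adjusted p, and without the trend 660 of 16028. GC correction gave 6 higher members (SRSF11, HNRNPA1L2, SF3A3, SF3B1, SF3B3 and SF3B4) and 3 lower ones (SRSF3, HNRNPU and HNRNPUL1) at the adjusted p. With this correction 1089 of all 16028 rows were called higher and 1228 lower (14.5% in all). It also gave 8 higher members at the unadjusted p, and 11 higher and 9 lower related calls. Shares of all rows at the unadjusted p and at the fold threshold are not given for these alternatives. The cause of these moves was not tested. HNRNPK reversed to -0.040 with quantile normalization and to -0.014 with GC correction, and SF3A2 and SF3B6 to 0.14 and 0.13 with GC correction, with and without the replicate block.

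With a library left out, the members past the adjusted threshold were 0 to 1 higher and 0 to 2 lower, those past the unadjusted one 3 to 5 and 4 to 8, those without overlap 6 to 8 and 6 to 14, and those past the fold threshold 0. Groups without overlap made up 40.8% to 45.8% of all rows in these fits, compared with 34.2% when no library was left out. The medians ran from -0.077 to -0.011 for all members, from -0.17 to -0.019 for SR, from -0.17 to -0.013 for hnRNP and from 0.082 to 0.22 for SF3, and related calls were 0 to 2 higher and 0 to 5 lower. Of all rows, 5.05% were called without GapNC 1, and 0.2% to 0.761% without any other library, so fewer calls were possible in these fits. HNRNPK then ran from -0.023 to 0.044, SRSF10 from -0.042 to 0.24, SRSF8 from -1.02 to 0.019, HNRNPA0 from -2.63 to 1.55 and SF3B5 from -3.18 to 2.19.

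The replicate numbers were not shown to pair the libraries. The deviations of libraries of 1 number correlated at 0.097, 0.0398 and 0.0243, and those of different numbers at -0.093 to 0.0578. GapNC 3 correlated best with GapC9 2. With the replicate block, 0 members and 0 related genes passed the adjusted threshold in either direction, with and without GC correction, as did 0 of all rows without it. Without counts, the depth behind single values cannot be set, and members near the filter are the least precise.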

Other observations

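Of 54 rows for pseudogenes of the families, which were not members, 7 reached 1 FPKM in some library, and of these HNRNPA1P10 was the 1 row whose groups did not overlap. MIR4444-2 joined with HNRNPA3P6 was at 1.65, 2.5e-06 and at 1.91 FPKM in GapNC, and at 48.5, 53.8 and 0.159 FPKM in GapC9. HNRNPA1P12 was listed at 22.4 FPKM in GapNC 3 and at 0 in the other libraries. GAREM1 joined with HNRNPA1P7 was at 0.355, 27.4 and 0.510 FPKM in GapNC and at 23.9, 0.512 and 0.400 FPKM in GapC9. The groups of these 3 rows overlapped, and how fragments of HNRNPA1 and HNRNPA3 were divided among them was not tested.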
